A study of Arabidopsis thaliana with 4 samples.

Results

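Exons of more than 76 bp that are either kept in or left out of the mRNA made up 281 of the 14133 alternative splicing events listed for seedlings of the Arabidopsis thaliana ecotypes Ler and Col. They were taken from 571 listed skipping events: 2 lacked a coordinate, 288 concerned exons up to 76 bp, and length was counted between the exon ends in the Col genome. The 281 events lay in 224 genes and concerned 277 distinct exons and 231 distinct skipping junctions. In 42 genes several such events were listed, 99 in all, which shared exon ends or junctions and are therefore not independent of each other. The shortest exons kept were 77 bp long, among them those of AT2G35360 (96.4% inclusion in Ler, 70.5% in Col), XRN3 (98.4% in both ecotypes) and AT2G14520 (87.5% and 86.4%). Just outside lay 76 bp exons of ATX1 (100.0% in Ler, 99.6% in Col), BGLU44 (99.3% and 100.0%) and AT5G09880 (70.6% and 54.6%).

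Ler and Col are inbred accessions of this plant, and neither carried a transgene or received an agent, as far as the labels say. Both were grown for 14 days on MS plates at 22 °C under days of 8 h light and 16 h darkness, and polyadenylated RNA was sequenced in 2 samples of Ler and 2 of Col. The source is given as the first leaf while the extraction text names shoots, and a splicing table holds no expression level against which the tissue could be checked. The labels do not say if the samples were planted separately, and each ecotype has 1 deposited level per event, so no spread between samples can be given. Reads per event are likewise unknown.

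During splicing, the spliceosome joins a donor site at the start of an intron to an acceptor site at its end. An exon is skipped when the donor of the exon before it is joined to the acceptor of the exon after it. An exon whose length is a multiple of 3 can be removed without shifting the reading frame, whereas any other length shifts it. A stop codon well before the last exon junction can mark an mRNA for nonsense-mediated decay, and plant genes for splicing regulators are known for cassette exons that carry such stops. The listed inclusion level is the authors' value for the form that holds the exon against the form that skips it; how it combines the exon's junctions is described further on.

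The sequences below are from the RefSeq copy of the Col reference (TAIR10.1) and are printed 5′ to 3′ on the gene's strand. The next 3 exons, in genes for RNA-binding proteins, are each a multiple of 3 long, yet carry a stop codon in the reading frame of the mRNA that includes them. They are shown from the exon's start through that stop codon, which is in capitals.
ATRBP45C, chr4:13556591-13556637, minus strand: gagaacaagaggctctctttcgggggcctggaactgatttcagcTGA
PTB1, chr3:52645-52665, plus strand: atgttgatgcctctttatTAA
SCL33, chr1:20631561-20631594, plus strand: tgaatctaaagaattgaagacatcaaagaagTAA
In ATRBP45C the stop codon starts at base 45 of the 78 bp exon, in PTB1 at base 19 of 102 and in SCL33 at base 32 of 162. Both exons that follow are coding and lie at the ends of the range of frame outcomes: the 210 bp exon of AT5G10630 can be skipped in frame, and skipping the 77 bp exon of AT2G35360 shifts the frame. They are among the exons whose inclusion differed most between the ecotypes, in opposite directions.
AT5G10630, chr5:3361154-3361363, plus strand: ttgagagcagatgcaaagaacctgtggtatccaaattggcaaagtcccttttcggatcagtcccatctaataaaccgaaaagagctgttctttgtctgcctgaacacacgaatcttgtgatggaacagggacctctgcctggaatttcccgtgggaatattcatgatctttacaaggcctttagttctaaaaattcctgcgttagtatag
AT2G35360, chr2:14890286-14890362, minus strand: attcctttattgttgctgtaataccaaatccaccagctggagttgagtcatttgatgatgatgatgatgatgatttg

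The listed levels spread widely between exons and were close in the 2 ecotypes for most of them. The median level was 92.8% in Ler (quartiles 51.5 and 98.4%) and 92.4% in Col (53.6 and 98.0%). Levels were above 90% in both ecotypes for 142 exons and under 50% in both for 68. The authors label 167 of the events Skip_Exon and 114 Skip_Intron, and what sets these labels apart was not checked. Skip_Exon events had medians of 95.6% in Ler and 96.1% in Col. Skip_Intron events had 68.2% in Ler and 62.2% in Col, and held 49 of the 68 low exons. For exons up to 76 bp the medians were 89.9% in Ler and 91.5% in Col. The median difference between the ecotypes, without regard to sign, was 2.16 percentage points, against 3.78 over all events of the table. It was at most 5 points in 208 exons (74.0%) and at most 10 in 240 (85.4%). Across the 281 exons the levels of the ecotypes were related with Pearson's r of 0.976 and Spearman's rho of 0.884, which describes exons of shared genes and libraries and is given without a test. The exon of AT4G24920, which encodes a sec61-gamma type transport protein, had a level of 5.15% in Ler and was listed at 0 in Col. An exon of the kinase gene AT5G21222 was listed at 0 in Ler, with 14.7% in Col.

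**Figure D1:**
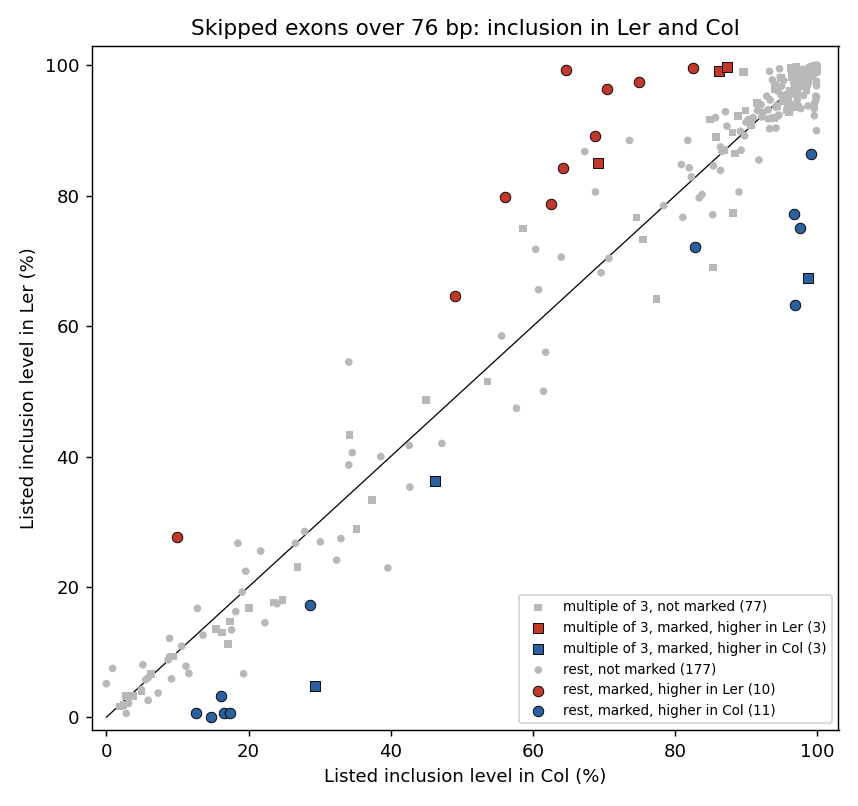
Listed inclusion level of each of the 281 exons in Ler (vertical axis, %) against Col (horizontal axis, %); squares are lengths that are multiples of 3, circles the rest, and coloured points carry the authors' mark for a difference. The 142 exons above 90% in both ecotypes crowd at the top right, most others lie near the line of equal levels, and 27 marked exons stand off it on both sides.

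The authors marked 27 of these exons (9.61%, 95% interval 6.69 to 13.6%) as different between the ecotypes, while 7.46% of all events carried a mark. Of these, 13 were higher in Ler, a direction given to 3.38% of all events, and 14 were higher in Col, given to 4.08% of all events. Exons up to 76 bp were marked in 18 of 288 (6.25%, 3.99 to 9.66%), an interval that overlaps that of the longer exons. Every marked exon had q under 0.05 and a difference above 10 points in the authors' deposited table, and no unmarked exon met both. With q under 0.05 alone, 60 exons (21.4%) passed in the authors' deposited table, against 14.3% of all events. The marked differences ran from 10.1 to 34.7 points with a median of 16.7, and 9 exceeded 20 points. The 27 marks fell in 24 genes. By the authors' label, 11 of 167 Skip_Exon events (6.59%, 3.72 to 11.4%) were marked. The marked Skip_Intron events were 16 of 114 (14.0%, 8.83 to 21.6%), and the intervals overlap.

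Among the exons higher in Ler, that of PAT1, a GRAS protein of phytochrome A signalling, had the largest difference. This 80 bp exon of the 5′ UTR, at chr5:19524309-19524388, was included at 99.3% in Ler and 64.6% in Col (q = 3.07e-49 in the authors' deposited table). The same exon, listed with another acceptor for the skipping junction, reached 99.6% in Ler and 82.6% in Col. The coding exon of AT2G35360, a ubiquitin family gene, stood at 96.4% in Ler and 70.5% in Col (q = 6.85e-06 in the authors' deposited table). On the annotated transcript its inclusion gives a protein of 225 residues, and skipping moves the stop codon up to leave 86 residues. VAB2 encodes the B subunit of the vacuolar proton pump, and a 92 bp exon of it that holds the start codon was included at 79.8% in Ler and 56.1% in Col (q = 5.74e-18 in the authors' deposited table). The 83 bp exon in the 5′ UTR of ARF1, an auxin response factor, had 89.2% in Ler and 68.7% in Col. MEE5, known here only by an annotated product of the elongation factor G family, was the case of low inclusion among these. Its 133 bp exon of the 5′ UTR had 27.6% in Ler and 9.88% in Col. AT3G18500 gave 2 marked exons with a shared start, of 164 bp (97.4% in Ler, 75% in Col) and 300 bp (99.2% and 86.2%). The remaining exons higher in Ler were those of AT4G10070, a KH domain protein (84.2% in Ler, 64.3% in Col), AT5G55100, a SWAP domain protein (78.7% and 62.6%), TBL16 (85.1% and 69.2%), the protein kinase gene AT1G13350 (64.7% and 49.1%) and AT3G23480 (99.7% and 87.3%).

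Among the exons lower in Ler, the 155 bp exon of AT3G26020, a gene for a regulatory B subunit of protein phosphatase 2A, differed most. It lies in the 5′ UTR and was included at 63.3% in Ler and 96.9% in Col (q = 3.67e-11 in the authors' deposited table). The 261 bp exon of AT2G16990, a membrane transporter of the major facilitator superfamily, had 67.4% in Ler and 98.7% in Col. AT5G10630 is annotated as an EF1A/IF2gamma family protein. Its 210 bp exon had 4.84% in Ler and 29.4% in Col (q = 0.00224 in the authors' deposited table). Inclusion of this exon gives 738 residues and its skipping 668, with the same stop codon. FTSZ2-2, which acts in chloroplast division, had 75% in Ler and 97.6% in Col for a 77 bp exon, and AT1G08910, a zinc-binding protein, 77.2% in Ler and 96.8% in Col. AT2G26470 had 86.4% in Ler and 99.1% in Col. Several of the other exons lower in Ler were minor forms in both ecotypes. Exons of AT1G16560 (0.610% in Ler, 16.6% in Col), AT3G20430 (0.709% in Ler for both its exons, 17.4 and 12.6% in Col) and Toc90, a member of the chloroplast import receptor family (3.18% and 16.1%), were nearly absent in Ler. Another annotated gene overlaps the exon of AT1G16560, as it does for 7 unmarked exons, and strandedness of the reads is not known here, so reads of either gene cannot be told apart. SR34a, a serine/arginine-rich splicing factor, had 17.2% in Ler and 28.7% in Col. AT2G16940, a CC1-like splicing factor, had 36.3% in Ler and 46.3% in Col, and AT1G28395 72.1% in Ler and 82.8% in Col.

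**Figure D2:**
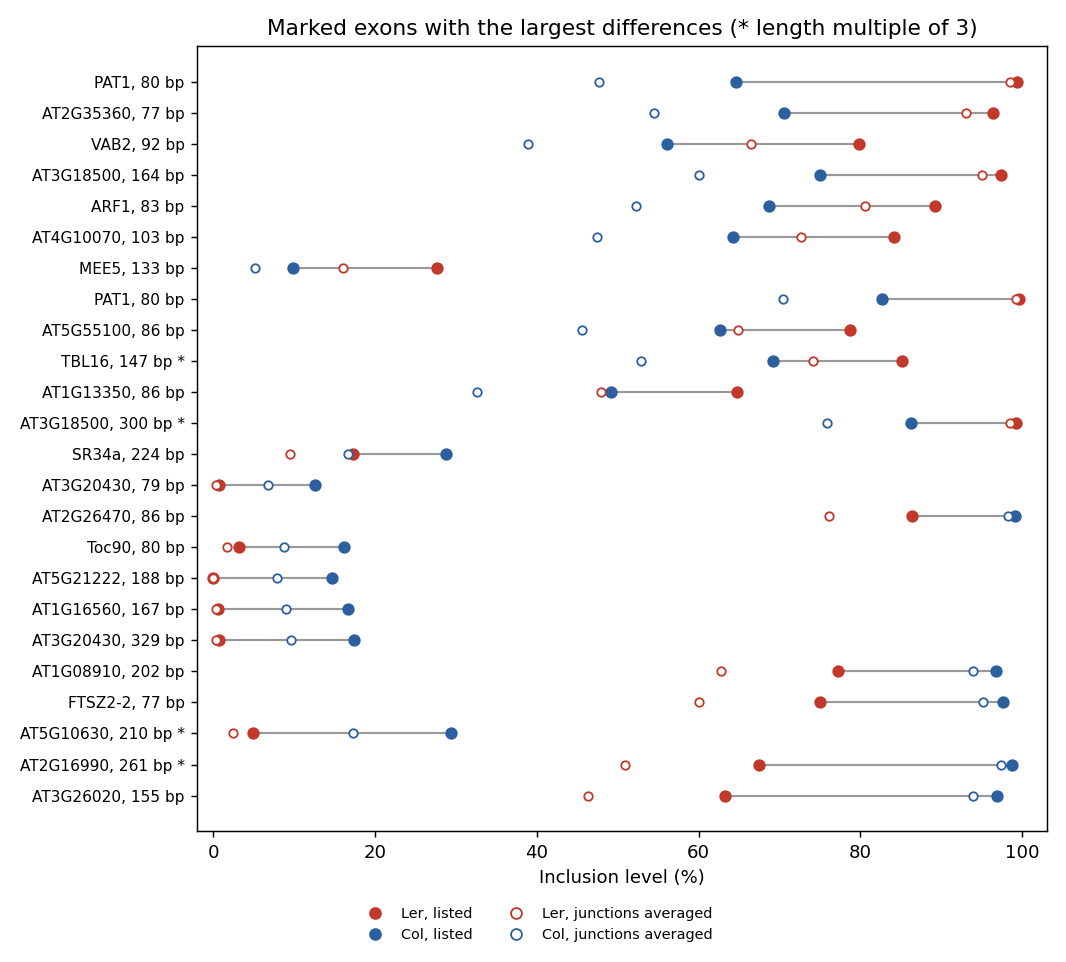
Inclusion level (%) in Ler (red) and Col (blue) of the 12 marked exons with the largest difference in each direction, ordered from higher in Ler at the top to lower in Ler at the bottom. Filled points are the listed levels and open points the levels recomputed with both inclusion junctions averaged; asterisks mark lengths that are multiples of 3. Averaging cannot reverse a direction, so every pair of open points keeps that of its filled pair by construction. The listed levels run from PAT1 with 99.3% in Ler and 64.6% in Col to AT3G26020 with 63.3% and 96.9%.

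The splice sites of the most different exons in the Col reference are shown with 15 intron and 5 exon bases, and the intron's terminal AG or GT is in capitals. The Ler sequence was not used here.
PAT1 acceptor, chr5:19524384-19524403: acatgataatattAGgtctt
PAT1 donor, chr5:19524294-19524313: aaaagGTatgaatttgtagc
AT2G35360 acceptor, chr2:14890358-14890377: gattttattgtgtAGattcc
AT2G35360 donor, chr2:14890271-14890290: atttgGTaaagaatggtttc
VAB2 acceptor, chr4:18014971-18014990: tgaatttgttgttAGgtttt
VAB2 donor, chr4:18014869-18014888: attaaGTagattcacgtcca
AT3G26020 acceptor, chr3:9514023-9514042: ttccgattgtttcAGaagaa
AT3G26020 donor, chr3:9514188-9514207: ctcagGTttgtgatttgatt
AT2G16990 acceptor, chr2:7386188-7386207: ggtttgataatgcAGcacca
AT2G16990 donor, chr2:7386459-7386478: ctcaaGTaaataacctacga
AT5G10630 acceptor, chr5:3361139-3361158: atgtgttttatgcAGttgag
AT5G10630 donor, chr5:3361359-3361378: tatagGTtgtcaacttgctg
Each site was scored by how closely it resembles the annotated introns of the genome, as a log2 score. The annotated medians were 6.94 for donors and 7.10 for acceptors. PAT1 had a low acceptor score of 3.15 and a high donor score of 9.13. The donors scored 1.57 in VAB2, 2.51 in AT5G10630, 4.57 in AT2G35360 and 6.0 in AT2G16990, all below the annotated median, while AT3G26020 had 8.97. Of the acceptors, those of AT5G10630 (9.36), AT2G35360 (7.92), AT2G16990 (7.66) and AT3G26020 (7.42) scored above the annotated median. That of VAB2 (5.74) scored below it.

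Over all 281 exons, the exon's own sites scored lower than the sites joined when it is skipped. The median donor score was 5.60 for the exon and 7.52 for the skipping junction, and the median acceptor score was 6.26 for the exon and 7.77 for the skipping junction. Donors below the 10th percentile of annotated introns (3.99) occurred in 61 exons (21.7%), and in 7 skipping junctions. Acceptors below that percentile (3.34) occurred in 43 exons (15.3%), and in 8 skipping junctions. Donor dinucleotides were GT in 273 exons, GC in 7 and CT in 1, and acceptors ended in AG in 280. Exons up to 76 bp had a median donor score of 6.28 and a median acceptor score of 6.13. The introns beside the longer exons had median lengths of 164 bp upstream and 153 bp downstream, against 102 bp for all annotated introns.

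**Figure D3:**
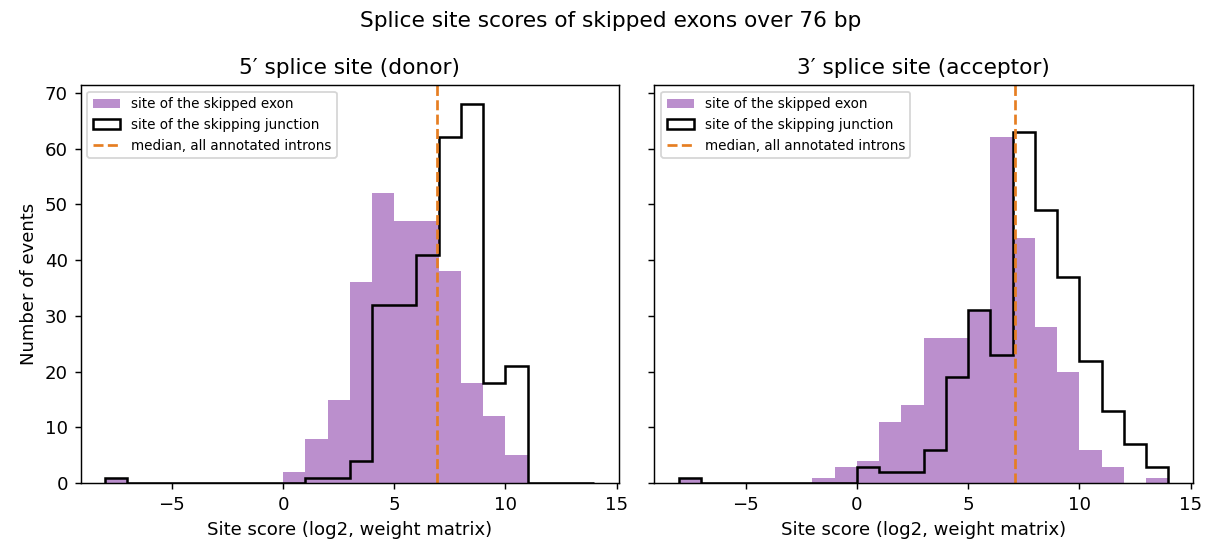
Number of events by weight matrix score (log2) of the donor (left) and the acceptor (right); filled bars are sites of the skipped exons over 76 bp, outlined bars the sites joined when the exon is skipped, and the dashed line is the median of annotated introns. Scores outside the plotted range are drawn in its end bars. The filled bars lie to the left of the outlined ones, with median donor scores of 5.60 and 7.52.

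Multiples of 3 made up 83 of the 281 exons (29.5%, 24.5 to 35.1%), with 102 exons leaving a remainder of 1 and 96 a remainder of 2. This was below the 43.1% among 83835 annotated internal exons of the same length range and close to the 31.2% (26.2 to 36.8%) among skipped exons up to 76 bp. Multiples of 3 and the rest had similar levels. The medians were 93.6% in Ler and 91.5% in Col for multiples of 3, and 92.2% in Ler and 92.7% in Col for the rest. Marks were carried by 6 of 83 multiples of 3 (7.23%, 3.36 to 14.9%) and by 21 of 198 others (10.6%, 7.04 to 15.7%), and the intervals overlap. Within the rest, 16 of the marks were on the 96 exons with a remainder of 2 (16.7%, 10.5 to 25.4%) and 5 on the 102 with a remainder of 1 (4.90%, 2.11 to 11%), with intervals that overlap narrowly. Of the 21 marks on the rest, 9 were on exons of the 5′ UTR of an annotated transcript, which lies outside the reading frame. By position against the gene's coding span, 10 of 28 others on the 5′ UTR side were marked (35.7%, 20.7 to 54.2%), FTSZ2-2 included. Inside the coding span, marks were carried by 5 of 66 multiples of 3 (7.58%) and by 10 of 151 others (6.62%). Exons that share a gene count more than once in these shares, PAT1 among them.

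The position of the exon in the annotated coding sequence went with much larger differences in level than its length class. These classes depend on which form is annotated, and annotation itself went with the level. Exons with the inclusion form alone annotated had medians of 97.8% in Ler and 98.1% in Col. Those with the skipping form alone annotated had 28.5% in Ler and 34.1% in Col. Position and annotation therefore cannot be told apart here. In 31 exons, each a multiple of 3, skipping kept the stop codon of the annotated protein, and the median level was 97.9% in Ler and 97.1% in Col. In 53 exons, skipping led to a stop codon more than 50 bases before the last junction, and the median was 97.4% in both ecotypes. Thus the listed levels of these coding exons were about the same whether skipping kept the frame or gave an early stop. The levels describe the mRNA that was present. Decay of forms with an early stop could alter them, here and for the cassette exons below, which was not tested. Exceptions among those skipped in frame were the exon of AT5G10630 described above and the 111 bp exon of AKINBETA1, a beta subunit of the SnRK1 energy-sensing kinase. The exon of AKINBETA1 was included at 3.21% in Ler and 3.72% in Col, with 320 residues when included and 283 when skipped.

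Cassette exons that are missing from the annotated transcript with the longest coding sequence were mostly minor forms. Of 65 such exons, 58 (89.2%, 79.4 to 94.7%) brought an early stop codon when included, and in 53 of these it lay inside the exon itself. Their median level was 23.5% in Ler and 29.7% in Col. Inclusion was at most 50% in both ecotypes in 38 of the 58 and above 90% in both in 8. An early stop came with 17 of the 19 multiples of 3 and with 41 of the 46 others, and the median levels were 23.0% in Ler and 26.9% in Col for multiples of 3 and 24.1% and 32.4% for the others. The transcript was chosen for its longest coding sequence, so the share of exons with an early stop is in part set by that choice.

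**Figure D4:**
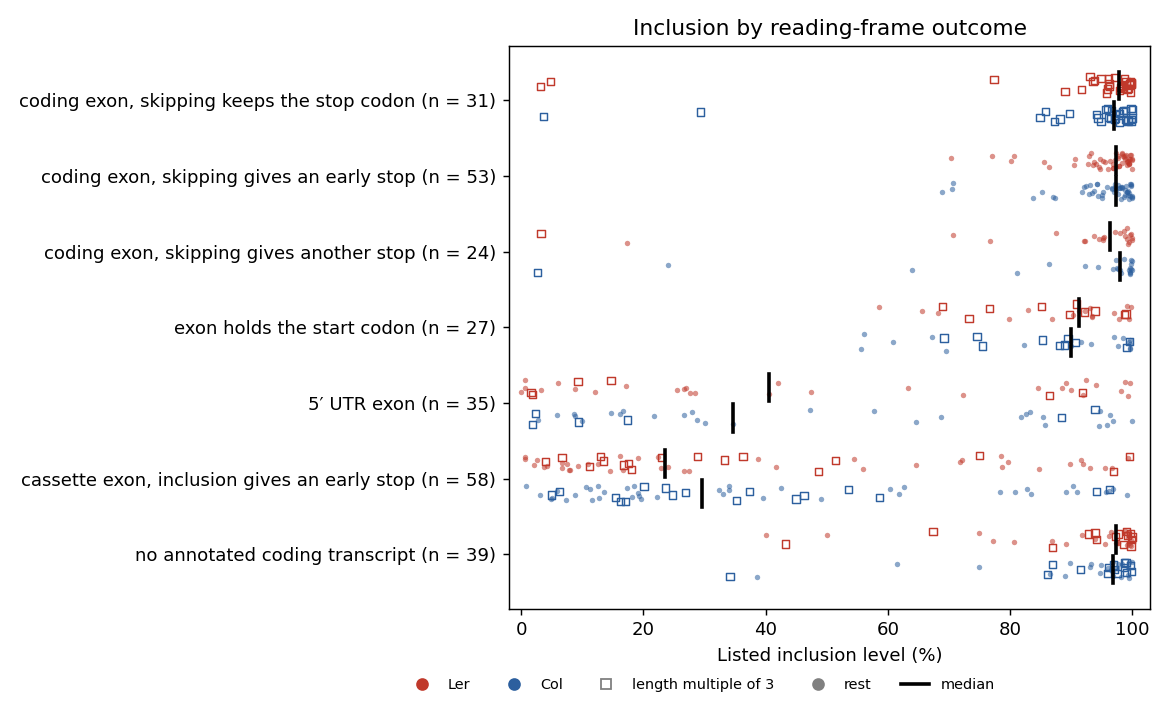
Listed inclusion level (%) of each exon in Ler (red, upper row of each class) and Col (blue, lower row), by what skipping or inclusion does to the annotated reading frame; squares are multiples of 3, dots the rest, black bars medians. Classes of under 10 exons are left out. Coding exons lie near 97% whether or not skipping keeps the frame, and cassette exons with an early stop lie mostly under 50%, with medians of 23.5% in Ler and 29.7% in Col.

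Genes for RNA-processing proteins held many of these low exons. By words in their annotated product they accounted for 25 exons in 22 genes, of which 16 were among the 68 under 50% in both ecotypes and 1, in AT2G16940, was marked (4%, against 7.46% of all events). The median level was 28.9% in Ler and 35.2% in Col. Among the serine/arginine-rich splicing factors, which promote exon recognition, RS31 had 23.0% in Ler and 26.9% in Col, RS40 27.4% and 33.0%, RS41 16.2% and 18.2%, SCL33 13% and 16.3%, and SCL30A 19.2% and 19.1%. SR34 of the same family was high, with 84.3% in Ler and 82% in Col, and the marked exon of SR34a, which the product words miss, is described above. In 5 of the 25 exons the level was over 90% in both ecotypes, as in LSM1A with 97.2% in Ler and 97.5% in Col. The 449 bp exon of SCL30 had 3.71% in Ler and 7.28% in Col. The 2 exons of SR45a, of 81 and 96 bp, share a donor of low score (1.57) and had 33.3 and 51.5% in Ler and 37.4 and 53.6% in Col. The 81 bp form was hardly joined at its own acceptor, where the upstream junction had 0.885% in Ler and 0 in Col. Its listed level thus rests on the junction of the shared donor, with 32.9% in Ler and 37.4% in Col. PTB1, a polypyrimidine tract-binding splicing regulator that the product words miss, had 16.8% in Ler and 20.1% in Col for the 102 bp exon whose stop codon is printed above. In ATRBP45C the 78 bp exon had 3.96% in Ler and 4.92% in Col, and in its relative RBP45B an 87 bp exon had 6.67% and 6.30%. FLK, a KH domain protein that affects flowering time, had 10.9% in Ler and 10.6% in Col. AT1G60900, a large subunit of the U2 auxiliary factor that recognises acceptor sites, had 17.6% in Ler and 23.6% in Col for a 309 bp exon. Of the exons named so far in this paragraph, those of AT2G16940 and SR34a carried a mark. The product words also miss further marked exons, among them those in AT5G55100 (SWAP domain), AT4G10070 (KH domain) and AT3G20430 (RNA export adapter-like). The marked share of 4% therefore holds for the word list alone and not for RNA-processing genes at large. Genes whose product names a kinase or a phosphatase, small-molecule kinases such as PANK1 and TPK2 included, held 24 exons with medians of 86.5% in Ler and 90.5% in Col. Of these exons 3 were marked (12.5%, 4.34 to 31%), near the 9.61% of all exons over 76 bp and the 7.46% of all events.

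Exons of the 5′ UTR formed a further low group, with 35 exons and medians of 40.6% in Ler and 34.6% in Col. They carried 9 of the 27 marks, a share of 25.7% (14.2 to 42.1%), against 9.61% of all exons over 76 bp and 7.46% of all events. Besides PAT1, which has 2 of these marks, the marked ones were in ARF1, MEE5, AT3G26020, AT1G16560, SR34a, Toc90 and AT5G21222. The marked exon of FTSZ2-2 also lies on the 5′ UTR side, but neither of its forms is annotated and it is not counted here. The stretch from the exon before to the exon after had another length in Ler in ARF1, MEE5, AT3G26020, AT1G16560 and AT5G21222. It was equally long in PAT1, SR34a and Toc90. Whether position or this length difference goes with the marks was not tested. In APX1, a cytosolic ascorbate peroxidase, exons of 156 and 153 bp that share a donor were minor in both ecotypes, at 1.63 and 1.91% in Ler and 1.87 and 2.39% in Col. The 27 exons that hold the start codon had medians of 91.3% in Ler and 90% in Col, and 2 were marked, in VAB2 and TBL16.

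The listed level turned out to depend on how the junctions at either side of the exon are combined. Each of the 281 skipping junctions is also listed in an alternative 3′ site event and an alternative 5′ site event, which give the use of the exon's upstream and downstream junction against skipping. All 562 listed levels, 281 for each ecotype, equalled the sum of both inclusion junctions over that sum plus the skipping junction, within 0.1 points, whereas 16 equalled the value with the junctions averaged. An exon listed at 50% is thus 33.3% by the average, and one listed at 90% is 81.8%. Averaged, the median was 86.5% in Ler and 85.9% in Col. The averaged level rises with the listed one, so no exon changes direction under it.

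For 190 exons (67.6%) the levels of both junctions lay within 10 points of each other in both ecotypes. In 24 (8.54%) they lay over 50 points apart in 1 ecotype or both. In VAB2 the upstream junction had 79.6% in Ler and 55.7% in Col, but the downstream junction had 5.67% in Ler and 1.88% in Col, so the exon's listed level and its mark rest on the upstream junction. In ARF1 the downstream junction had 88.4% in Ler and 68.7% in Col, with 39.3% in Ler for the upstream junction and 0 listed in Col. PnsB4, which belongs to the NDH complex of chloroplasts, held the most skipping events of exons over 76 bp of any gene, 6 that combine 3 acceptors with 2 donors. Of these, the 174 bp form had a listed level of 99.1% in both ecotypes although its downstream junction had 34.6% in Ler and 19.4% in Col. Of the 39 exons with neither form annotated, the median listed level was 97.4% in Ler and 96.8% in Col, but the median of the lower junction was 57.1% in Ler and 53.3% in Col. Among the 104 exons with the inclusion form alone annotated, the lower junction had medians of 93.5% in Ler and 95.1% in Col.

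**Figure D5:**
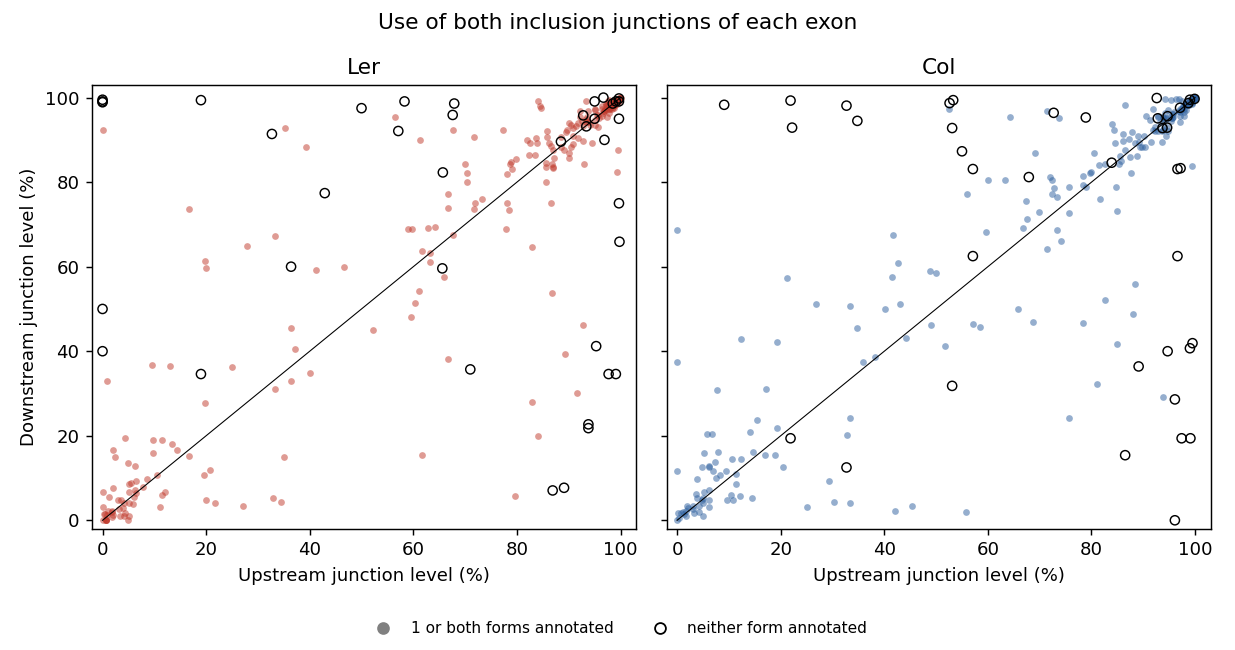
Level of the downstream inclusion junction (vertical axis, %) against that of the upstream junction (horizontal axis, %), each measured against skipping, in Ler (left) and Col (right). Exons on the line use both junctions alike; open circles, exons with neither form annotated, lie off it in many cases, and 24 exons are over 50 points apart in 1 ecotype or both.

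The marked differences were mostly seen at both sides of the exon. In 26 of the 27 marked exons both junction levels differed in the marked direction. The exception was AT2G16940, where the upstream junction had 34.4% in Ler and 45.3% in Col and the downstream junction 4.32% and 3.38%. The alternative site events built on them were marked in the same direction at both sides for 9 exons, at 1 side for 11 and at neither for 7, and none was marked in the opposite direction. These events share the skipping junction with the exon and are no independent measurement. In AT3G26020 the upstream junction had 20% in Ler and 90.5% in Col and the downstream junction 59.6% and 95.6%. In AT2G35360 they had 91.7% in Ler and 48.9% in Col upstream, and 94.0% and 58.9% downstream. Retention of a neighbouring intron was also listed for 139 of the 281 exons, and 3 marked exons, in ARF1 and AT3G18500, lay beside an intron with a marked retention event.

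Marks were more frequent where the table gives Ler another length. The skipped interval, from the exon before to the exon after, had another length in Ler for 90 exons, of which 16 were marked (17.8%, 11.2 to 26.9%). Of the 191 with equal length, 11 were marked (5.76%, 3.25 to 10%). The exon itself had another length in 13, of which 6 were marked (46.2%, 23.2 to 70.9%). These 6 were in AT3G26020 (154 bp in Ler, 155 in Col), AT2G16990 (260 and 261 bp), AT5G21222 (144 and 188 bp), AT1G28395 (381 and 382 bp) and, with 2 exons, AT3G20430 (80 and 79 bp, 331 and 329 bp). Each of the 6 was lower in Ler. The remainder on division by 3 changed in 12 of the 13. Whether reads of Ler map equally well to such exons was not tested. Large differences without a mark included the 139 bp exon of the heat shock factor gene HSFA1E, with 54.5% in Ler and 34.1% in Col and q = 0.317 in the authors' deposited table. Such a q does not show that the levels were alike.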

How the data were processed

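Polyadenylated RNA of 2 Ler and 2 Col samples was sequenced, per the labels. The submitters' processing notes name TopHat and the build TAIR10, with no version. In the deposited table an event has its coordinates in both ecotypes, an inclusion level for each ecotype, deposited by the authors as a fraction from 0 to 1, and a text cell that holds the authors' q value with a sign for the direction, per the file headers. Not given in the sources used here are the event caller, the estimate of levels, the read minimum, the test and how samples were combined. Read counts were not used, so the depth is unknown, and all intervals cover the counting of events alone.

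Levels were multiplied by 100 and are given as percentages. Exon length came from the Col coordinates. The exon and skipping junction were matched to the RefSeq annotation of TAIR10.1, whose introns fit the event coordinates after a shift of 1 base for flanking exon ends. Both mRNA forms were built on the gene's transcript with the longest coding sequence that holds either form, and read from its start codon; a stop codon over 50 bases before the last junction was called early. Splice sites were scored with log2 weight matrices from annotated introns, over 3 exon and 6 intron bases at donors and 14 intron bases and 1 exon base at acceptors. Shares have 95% Wilson intervals. Alternatives varied the call rule, the events kept and how junctions were combined; limiting events to junctions within 10 points, keeping 1 event per skipping junction and averaging the junctions were chosen after seeing the data.

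Members and lists were chosen with earlier results of these data known. Genes named are the 12 marked exons with the largest difference in each direction, the largest unmarked differences, the longest, lowest and most even exons, RNA-binding genes, the gene with most members and the exons at the length limit; others were chosen after their values were seen. Functions were tested on simulated data. Python 3.11.15, pandas 2.3.3, numpy 2.4.6, scipy 1.17.1 and matplotlib 3.10.9 were used.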

Additional observations from a re-analysis of the deposited data

How the results depend on the processing

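Each ecotype has 1 deposited level per event, so leaving out replicates could not be run. No paired analysis was possible because the levels carry no replicate numbers. Of 86 alternatives computed, 68 gave a value inside the 95% interval of the reported one. Calls by q under 0.05 and at least 10 points equal the authors' marks, so they could not differ. Many other alternatives keep part of the same events, so this count is no independent check. With q under 0.05 alone, in the authors' deposited table, the marked share was 21.4% of all exons over 76 bp, 19.3% of multiples of 3 and 22.2% of the rest; with marks of at least 20 points it was 3.20%, 2.41% and 3.54%. Without exons or skipped intervals of another length in Ler it was 5.76%. With both inclusion junctions averaged, the median level was 86.5% in Ler and 85.9% in Col, 87.9% and 84.3% for multiples of 3, and 85.5% and 86.3% for the rest. With annotated exons alone it was 94.0% in Ler and 94.8% in Col. With junctions within 10 points of each other it was 94.6% in Ler for all members, and for the rest 94.0% in Ler and 94.9% in Col. The cause of these shifts was not tested, apart from the averaging, which lowers every level between 0 and 100% by its construction. Depth is unknown, so a level near 0 or 100% has no limit of detection here.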
